A study of Mus musculus with 20 samples.

Results

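The genes described here act in the unfolded protein response of the endoplasmic reticulum (ER), together with calreticulin, an ER chaperone. Of 10 listed genes, 9 were measured by an array row that names no other gene: Hspa5, Hsp90b1, Calr, Hspa13, Dnajb9, Herpud1, Xbp1, Atf4 and Ddit3. They were taken by gene symbol from a table that gave values for 30142 genes, with the row of the highest mean used where a gene had several. The only row for Pdia4, a protein disulfide isomerase, also names Mir704 and was not used.

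RNA was measured on whole-transcript arrays in 20 tissue samples of FVB/N mice. All groups carried the same alleles (Rbf/f, Ptenf/f, Tp53f/f, p107-/-), so the controls also lacked p107, a relative of the retinoblastoma protein Rb. Control bladder (n = 5) came from mice whose labels name no virus. Bladder tumor (n = 7) came from mice whose bladder had received an adenovirus coding for Cre, a recombinase that deletes floxed genes. Treated bladder (n = 3) came from mice given the same virus and then CM272 with CDDP. CM272 inhibits the histone methyltransferase G9a and DNA methyltransferases and was given at 5 mg/kg per day for 30 days. CDDP is cisplatin, a DNA-damaging drug, given at 6 mg/kg once per week. Metastases (n = 4) and a treated metastasis (n = 1) are metastatic tumors from such mice, without and with the drugs, and the labels give no organ for them. The tissue of the treated bladders is labelled bladder and not bladder tumor, so the labels do not say how much tumor each held. The labels give no ages. Samples carry numbers within a group, but no label says that they are different animals. The p-values therefore rest on sample-to-sample spread, part of which may be technical.

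When unfolded proteins build up in the ER, 3 membrane sensors signal to the nucleus. IRE1 splices the Xbp1 mRNA, PERK slows translation while favouring that of Atf4, and ATF6 is cut to release a transcription factor. Their targets include chaperones, parts of the degradation machinery and, under lasting stress, Ddit3. Calreticulin is also known for a role outside the ER: on the surface of dying tumor cells it is a signal for uptake by phagocytes, which makes it a hallmark of immunogenic cell death. The array gives 1 RNA value per gene, so it does not report splicing of Xbp1, translation of Atf4 or the place of calreticulin in the cell.

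The promoters of 4 members hold classic elements of this response and are shown because 3 of them belong to the chaperones with the widest range over arrays. RefSeq windows of the assembly GRCm38.p6, 250 bases before to 50 after each gene's start, were found for 9 of the 10 listed genes, all but Hspa13. Both strands of each window were searched for the ER stress response element (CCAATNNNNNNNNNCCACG), for its second form ERSE-II (ATTGGNCCACG), for the XBP1 element (TGACGTGG) and for the ATF4 element (TGATGNAA). The 250 bases before the start follow 5′ to 3′ on the gene's strand, with the matches in capitals.

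Hspa5, chr2:34771840-34772089, plus strand: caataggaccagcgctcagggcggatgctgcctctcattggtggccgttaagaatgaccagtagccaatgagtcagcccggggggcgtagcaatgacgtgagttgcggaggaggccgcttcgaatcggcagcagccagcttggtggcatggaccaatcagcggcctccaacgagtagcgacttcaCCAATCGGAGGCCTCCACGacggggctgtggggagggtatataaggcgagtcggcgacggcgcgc

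Hsp90b1, chr10:86705445-86705694, minus strand: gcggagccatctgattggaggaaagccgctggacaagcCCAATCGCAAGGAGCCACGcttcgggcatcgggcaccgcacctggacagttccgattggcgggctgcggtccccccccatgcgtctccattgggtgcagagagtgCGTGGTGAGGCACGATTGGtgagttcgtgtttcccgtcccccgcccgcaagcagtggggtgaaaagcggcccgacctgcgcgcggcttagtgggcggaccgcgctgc

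Calr, chr8:84846932-84847181, minus strand: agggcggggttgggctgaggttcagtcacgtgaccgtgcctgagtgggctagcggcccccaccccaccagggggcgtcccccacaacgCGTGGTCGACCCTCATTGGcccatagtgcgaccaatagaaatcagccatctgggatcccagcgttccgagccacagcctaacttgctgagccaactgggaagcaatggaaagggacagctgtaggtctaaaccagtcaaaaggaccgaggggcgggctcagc

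Herpud1, chr8:94386179-94386428, plus strand: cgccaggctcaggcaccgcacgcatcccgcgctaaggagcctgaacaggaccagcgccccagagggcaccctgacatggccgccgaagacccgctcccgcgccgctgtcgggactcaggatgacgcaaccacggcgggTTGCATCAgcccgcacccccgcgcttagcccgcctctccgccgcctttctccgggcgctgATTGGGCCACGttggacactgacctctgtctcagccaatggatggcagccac

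In Hspa5 the ER stress response element lies at -65 to -47, counting the last base before the start as -1. Hsp90b1 has 2 copies, at -212 to -194 in the gene's direction and at -107 to -89 on the opposite strand. Calr has 1 copy on the opposite strand, at -162 to -144. Among all 32851 windows of this length, 39 (0.119%) hold this element. Herpud1 holds ERSE-II at -52 to -42, an element found in 12 windows (0.0365%), and the ATF4 element on the opposite strand at -112 to -105, found in 3.97% of windows. These matches do not overlap each other. The XBP1 element, in 0.676% of windows, was in none of the members' windows. Ddit3, Atf4, Xbp1, Pdia4 and Dnajb9 had no match to any of the 4 patterns in this window. A match is a run of letters and not a measured binding site.

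Values are log2 expression values made by the authors with RMA, so a difference of 1 is 2-fold, and values of different genes are not compared with each other. Differences are first group minus second, with the standard error (SE) and two-sided p of limma, a linear model fitted to all genes. A gene was called at a Benjamini-Hochberg adjusted p under 0.05 over all 30142 genes. Array medians lay between 5.07 and 5.42, and the number of arrays limits the precision. Some arrays stood apart. In 8 of them (metastasis 3 and 4, bladder tumor 3, 4 and 5, control bladder 4, 5 and 6) the deviations from the mean of all arrays correlated with those of any other array at no more than 0.139, whereas the highest correlation of each of the other 12 was 0.328 to 0.609. These 8 are called near-mean arrays here, and results are also given without them. The mean of 1564 olfactory, vomeronasal and other chemosensory receptor genes, used as a measure of background signal, ran from 4.62 in the treated metastasis to 5.26 in bladder tumor 1. Urothelial genes marked the bladder samples unevenly: the mean over 10 luminal urothelium markers was 6.84 to 8.49 in control bladder and 5.42 to 10.1 among the tumors, with the lowest value in bladder tumor 6. In the 8 near-mean arrays it was 6.80 to 7.09, whether they were labelled control, tumor or metastasis. Control bladder 1 and 2 had 8.12 and 8.49. The mean over 8 smooth muscle markers was 6.58 to 6.81 in the near-mean arrays, so neither mean parts bladder from metastasis among them. No treated sample is near-mean. The labels give no sex. Xist, the RNA that silences an X chromosome in female cells, named here after its values were seen, was no higher than 6.44 in 18 arrays (lowest 4.47). Control bladder 1 reached 10.8 and control bladder 2 reached 10.9. These are the only controls that are not near-mean, so without the near-mean arrays a difference from control cannot be told apart from a difference in Xist level, and with all arrays its part was not tested.

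Hspa5 encodes BiP, the Hsp70 chaperone of the ER lumen that also restrains the sensors. In control bladder its values were 6.74, 6.80, 6.85, 7.22 and 7.16. Bladder tumor ran from 6.45 over a median of 7.23 to 8.39. The treated bladders measured 6.35, 7.19 and 6.61. The highest tumor value was bladder tumor 6, and all 3 groups overlapped. The metastases measured 8.60, 7.02, 7.10 and 6.79, with metastasis 1 well above the other 3, and the treated metastasis measured 8.60. Group means were 7.38 ± 0.83 (SD, n = 4) in metastasis, 7.16 ± 0.63 (SD, n = 7) in bladder tumor, 6.95 ± 0.22 (SD, n = 5) in control bladder and 6.72 ± 0.43 (SD, n = 3) in treated bladder. No neighbours in that order differed beyond their spread. The treated bladders differed from the tumors by -0.44 (SE 0.37, 95% confidence interval -1.22 to 0.34), with a limma adjusted p of 1. Without bladder tumor 6 that difference was -0.23, and without treated bladder 2 it was -0.68.

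Hsp90b1 encodes GRP94, the Hsp90 of the ER. Control bladder measured 8.29, 8.09, 8.26, 8.60 and 8.48. Bladder tumor had a lowest value of 7.97, a median of 8.16 and a highest of 9.57. The treated bladders gave 7.96, 8.69 and 7.64. Treated bladder 2 was above all but 1 tumor, while treated bladder 3 was below every other array. In metastasis the values were 9.51, 8.06, 8.12 and 8.36, and the treated metastasis had the highest of all arrays, 9.66. Treated bladder averaged 8.10 ± 0.54 (SD, n = 3) against 8.40 ± 0.56 (SD, n = 7) in bladder tumor, a difference of -0.30 (SE 0.33, adjusted p = 1). Without treated bladder 2 that difference was -0.60, and without treated bladder 3 it was -0.076. Control bladder (8.34 ± 0.20, SD, n = 5) and metastasis (8.51 ± 0.67, SD, n = 4) lay within the spread of both.

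Calr encodes calreticulin, which helps fold glycoproteins and binds calcium in the ER. Control bladder gave 7.71, 7.70, 8.18, 8.23 and 8.26. Its values in bladder tumor ran from 7.46 over a median of 8.13 to 9.31 in bladder tumor 6. Treated bladder gave 7.53, 8.27 and 7.39. Treated bladder 1 and 3 lay below every control, whereas treated bladder 2 was above all 5 controls. Metastases measured 9.03, 8.23, 7.97 and 7.58 and the treated metastasis 9.18. Mean levels were 8.20 ± 0.61 (SD, n = 4) in metastasis, 8.14 ± 0.65 (SD, n = 7) in bladder tumor, 8.02 ± 0.29 (SD, n = 5) in control bladder and 7.73 ± 0.48 (SD, n = 3) in treated bladder. The treated bladders differed from the tumors by -0.41 (SE 0.35, 95% confidence interval -1.15 to 0.32, adjusted p = 1). That interval holds both a difference of 0 and changes of over 2-fold downward. Without bladder tumor 6 the difference was -0.22, and without treated bladder 2 it was -0.68. In whole tissue, fewer cells of a type and less RNA per cell cannot be told apart.

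Hspa13 encodes a small ER-associated member of the Hsp70 family and had the narrowest range of the 9 genes, 0.81 over 20 arrays. Control bladder measured 5.72, 5.60, 5.67, 5.86 and 5.88. Bladder tumor ran from 5.92 over 6.02 to 6.37. Every tumor was above every control, by a gap smaller than the spread within either group. The means were 5.75 ± 0.12 (SD, n = 5) and 6.06 ± 0.15 (SD, n = 7), a difference of 0.31 (SE 0.089, 95% confidence interval 0.13 to 0.50, adjusted p = 0.999) that did not pass the threshold. Groups that do not overlap, higher in tumor, were found for 32 of 30142 genes (0.106%). The treated bladders measured 5.78, 5.91 and 5.81 and all lay below all tumors, although the highest of them, 5.91, nearly met the lowest tumor, 5.92. That difference was -0.23 (SE 0.11, adjusted p = 1), and 0.0332% of genes were lower in treated bladder with no overlap. The shares that chance would give with so few arrays were not computed, so neither separation of Hspa13 is read as rare. Metastases gave 6.41, 6.29, 6.37 and 6.07 and the treated metastasis 6.39. Metastasis (6.29 ± 0.15, SD, n = 4) differed from bladder tumor by 0.23 (SE 0.096, adjusted p = 0.825), with overlapping values. In order of the means, control bladder and treated bladder (5.83 ± 0.071, SD, n = 3) were the lowest and overlapped, and tumor and metastasis followed. Without the near-mean arrays the difference of tumor from control was 0.41, that of treated bladder from tumor -0.24 and that of metastasis from tumor 0.28. Leaving out single arrays kept the difference of tumor from control between 0.26 and 0.35.

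Dnajb9 encodes ERdj4, a J protein that assists BiP and is a target of XBP1. Control bladder gave 8.34, 7.76, 8.19, 8.03 and 7.84. Bladder tumor ran from 7.28 over 7.75 to 8.46, and treated bladder gave 7.52, 7.96 and 7.65. Control bladder had the highest mean, 8.03 ± 0.24 (SD, n = 5), against 7.76 ± 0.40 (SD, n = 7) in tumor and 7.71 ± 0.23 (SD, n = 3) in treated bladder. The difference of tumor from control was -0.27 (SE 0.18, adjusted p = 0.999) and the groups overlapped. Metastases measured 7.82, 8.10, 8.16 and 7.53, and the treated metastasis 8.48, the highest of all arrays.

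Herpud1 encodes a membrane protein of ER-associated degradation, the route by which misfolded proteins are drawn out of the ER and destroyed. Control bladder gave 6.999, 6.77, 6.34, 6.37 and 6.72, bladder tumor a lowest value of 5.97, a median of 6.29 and a highest of 6.78. In treated bladder the values were 5.99, 6.40 and 6.51. Only Herpud1 among the 9 had its highest array in control bladder. The mean was 6.64 ± 0.28 (SD, n = 5) there, 6.38 ± 0.34 (SD, n = 7) in tumor and 6.30 ± 0.28 (SD, n = 3) in treated bladder. Tumor differed from control by -0.27 (SE 0.17, adjusted p = 0.999) and treated bladder from control by -0.34 (SE 0.21, adjusted p = 1). Metastases measured 6.57, 6.37, 6.57 and 6.11 and the treated metastasis 6.91.

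Xbp1, the transcription factor made active by IRE1, measured 6.71, 6.47, 6.70, 6.46 and 6.58 in control bladder. Bladder tumor ran from 6.01 over 6.47 to 7.27, and treated bladder gave 6.59, 6.64 and 6.13. Metastases gave 6.81, 6.38, 6.83 and 6.58 and the treated metastasis 6.70. All group means lay between 6.45 ± 0.28 (SD, n = 3) in treated bladder and 6.65 ± 0.21 (SD, n = 4) in metastasis, which is within the spread. Xbp1 is also abundant in antibody-secreting plasma cells, and the mean over 7 plasma cell markers was 4.96 to 5.30 in control bladder, 5.08 to 5.71 in bladder tumor, 5.13 to 5.35 in treated bladder and 5.03 to 5.32 in metastasis. Bladder tumor 6, with the highest Xbp1 value, had a plasma cell mean of 5.08, the lowest of the tumors. Its background mean was 4.64, and bladder tumor 1, with the highest plasma cell mean of 5.71, had a background mean of 5.26. The plasma cell means lie close enough to background for it to enter their order. The part of plasma cells in the Xbp1 values was not tested.

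Atf4, the transcription factor of the PERK arm, measured 5.61, 5.38, 5.71, 5.57 and 5.66 in control bladder. Bladder tumor ran from 5.29 over 5.50 to 6.45. Treated bladder gave 5.15, 5.97 and 5.67, metastasis 5.65, 5.80, 5.84 and 5.97, and the treated metastasis 5.71. Treated bladder 1 had the lowest Atf4 value of all arrays, while treated bladder 2 at 5.97 was above every control. The low values lay near background: the background mean was 5.11 in treated bladder 1. In bladder tumor 1, with Atf4 at 5.29, it was 5.26. In treated bladder 2 the background mean was 4.78. Metastasis (5.81 ± 0.13, SD, n = 4) and tumor (5.63 ± 0.41, SD, n = 7) differed by 0.18 (SE 0.19, adjusted p = 0.898).

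Ddit3 encodes CHOP, a pro-apoptotic transcription factor downstream of ATF4. Control bladder gave 6.96, 7.45, 6.97, 6.23 and 7.18. In bladder tumor the values ran from 6.30 over 6.95 to 8.01, and the treated bladders gave 6.59, 6.94 and 6.80. Metastases measured 7.27, 6.65, 7.37 and 6.87 and the treated metastasis 7.37. All groups overlapped, and the means lay between 6.78 ± 0.18 (SD, n = 3) in treated bladder and 7.04 ± 0.34 (SD, n = 4) in metastasis. A second row for Ddit3 correlated with the one used at r = 0.817 over 20 arrays, and gave a difference of treated bladder from tumor of -0.19 where the row used gave -0.22. For tumor against control the rows differed in sign, -0.041 against 0.040, and for metastasis against tumor they gave 0.0085 and 0.043. Without bladder tumor 6 the row used gave -0.050 for treated bladder against tumor.

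**Figure D1:**
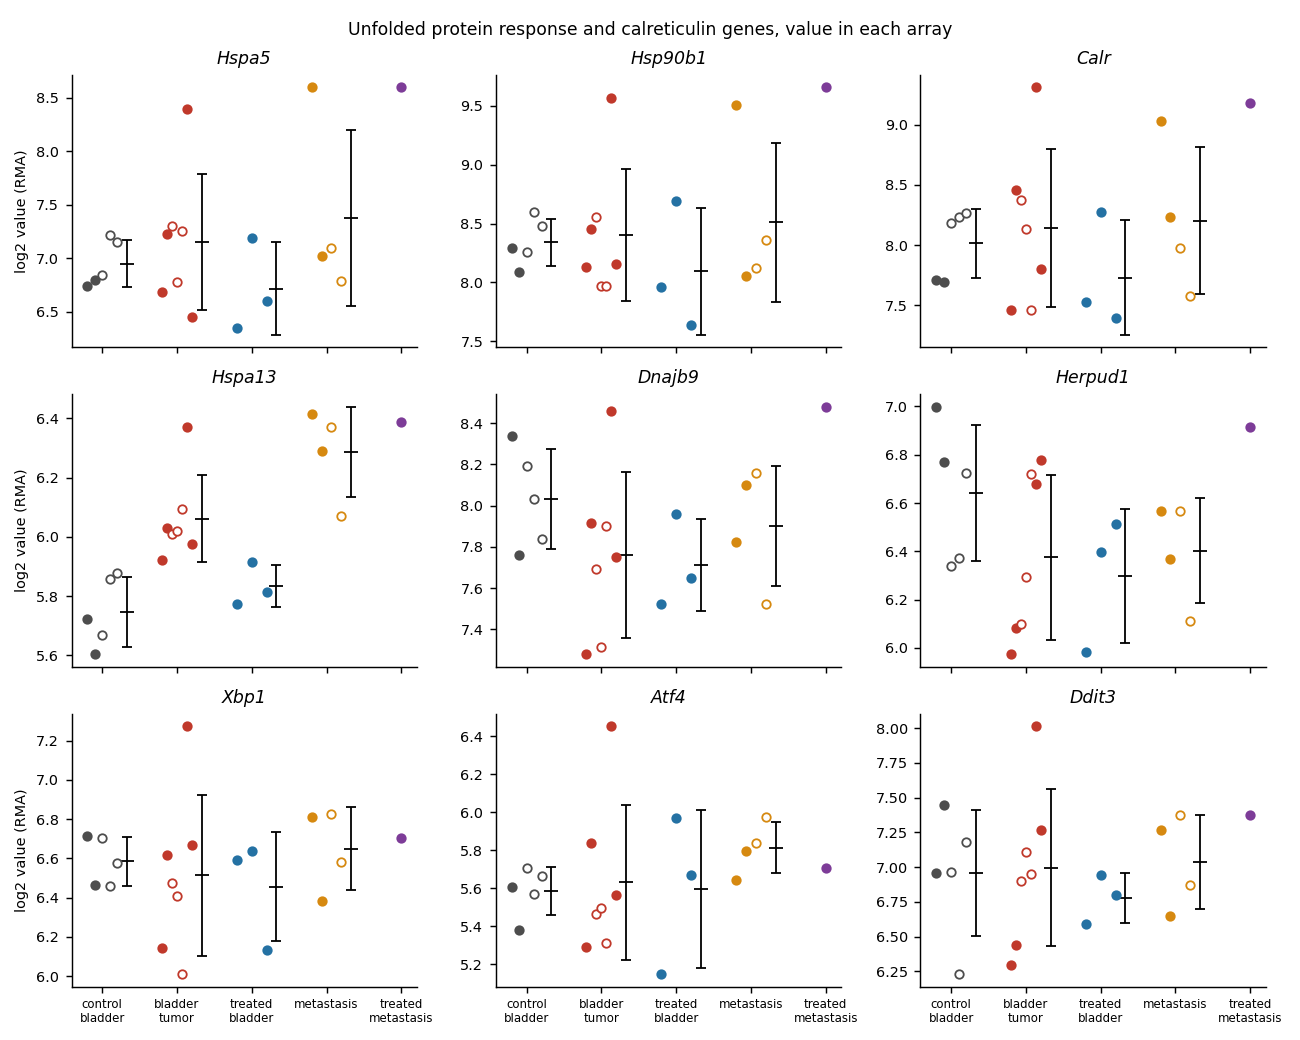
Log2 RMA value (vertical axis) of each of the 9 genes in each array, by group; each circle is 1 array, open circles are the 8 near-mean arrays, and the black mark with its bar is the group mean ± SD. Bladder tumor 6, metastasis 1 and the treated metastasis stand above the rest for Hspa5, Hsp90b1 and Calr, and only Hspa13 has control bladder wholly below bladder tumor.

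Set side by side, the comparisons had no called member and no called gene at all (0% of 30142 genes in each). Genes with an unadjusted limma p under 0.05 numbered 1291 for tumor against control, 147 for treated bladder against tumor, 230 for treated bladder against control and 1810 for metastasis against tumor. If no gene differed, a share of about 0.05 of the 30142 genes would be expected there. Only the count for metastasis against tumor is above that share, so these counts are not read as differences. In bladder tumor against control bladder, 6 of 9 members were higher and 3 lower, with a median difference of 0.045 against 0.011 over all genes. For treated bladder against bladder tumor, 0 were higher and 9 lower, with a median of -0.22, while 50.6% of all genes were lower and their median was -0.0018. Against control bladder, treated bladder had 2 members higher and 7 lower, with a median of -0.23 against 0.0080 over all genes. Both comparisons share the treated arrays. Metastasis against bladder tumor had 9 members higher and 0 lower, with a median of 0.14 against -0.026 over all genes. The tumor arrays enter 3 of the 4 comparisons, so these differences are not independent of each other.

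The counts by direction moved with single arrays. In treated bladder against tumor, leaving out bladder tumor 6 or treated bladder 1 left 6 of 9 members lower (medians -0.050 and -0.13), and leaving out treated bladder 3 left 8. With the background measure as a covariate 5 of 9 were lower and the median was -0.053. Without the near-mean arrays all 9 remained lower in treated bladder. Mean background was high in treated bladder 1 (5.11) and 3 (5.16) and low in treated bladder 2 (4.78), the array with the highest Hspa5, Hsp90b1 and Calr values of the group. For metastasis against tumor, 4 members were higher without metastasis 1, with differences of -0.19 for Hspa5, -0.22 for Hsp90b1 and -0.22 for Calr. There 6 members were higher without bladder tumor 1, and also without the near-mean arrays. In tumor against control, 1 of 9 members, Hspa13, was higher once bladder tumor 6 was left out, and the median was -0.13. Without the near-mean arrays 6 members were higher and 3 lower in tumor than in control bladder 1 and 2, the controls left. The median was then 0.29, next to 0.059 over all genes. The part of background in these differences was not tested beyond that covariate.

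**Figure D2:**
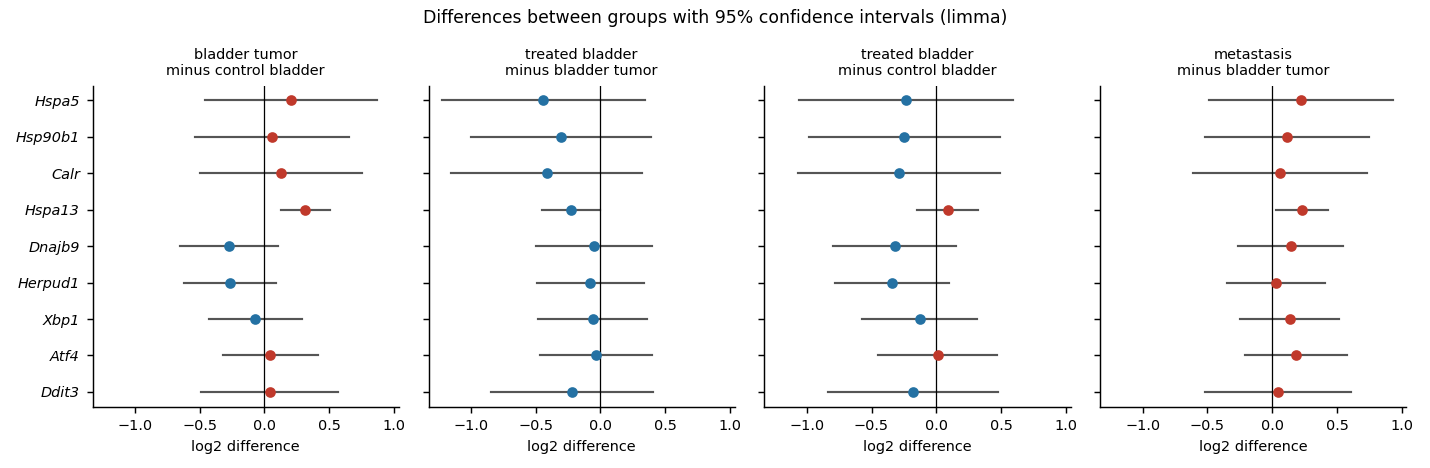
Log2 difference (horizontal axis) of each gene in 4 comparisons from limma, with bars for the 95% confidence interval; red points are above 0 and blue points below. All 9 points lie below 0 for treated bladder against bladder tumor and all 9 above 0 for metastasis against bladder tumor, and the only bars that miss 0 are those of Hspa13 in 3 of the comparisons.

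Bladder tumor 6 and the treated metastasis had all 9 members above the mean of all arrays, and each was among the top 3 arrays for 7 of them. Bladder tumor 6 was highest of all arrays for Calr, Ddit3, Atf4 and Xbp1, and the treated metastasis for Hspa5, Hsp90b1 and Dnajb9. Metastasis 1 had 7 of 9 above the mean and was highest for Hspa13. At the other end, bladder tumor 1 had 0 of 9 above the mean and was among the lowest 3 arrays for 6. Treated bladder 1 had 1 of 9 above the mean and treated bladder 3 had 2. Hspa5 spanned 2.25 over the 20 arrays, Hsp90b1 2.02, Calr 1.92, Ddit3 1.78, Atf4 1.31, Xbp1 1.26, Dnajb9 1.201 and Herpud1 1.03.

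**Figure D3:**
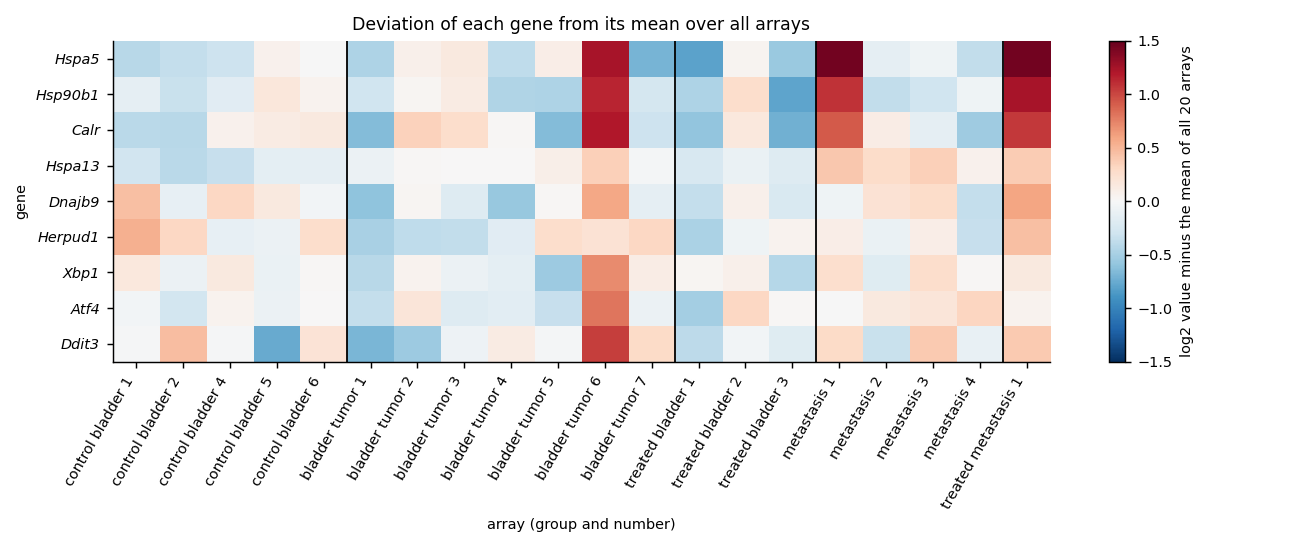
Deviation of each gene (rows) from its mean over 20 arrays, in log2 units, in each array (columns, ordered by group); red is above and blue below that mean, and black lines part the groups. Bladder tumor 6 and the treated metastasis are red in all 9 rows, while bladder tumor 1 is blue in all 9.

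Other measures moved with these arrays. The background mean was lowest in the treated metastasis (4.62), bladder tumor 6 (4.64) and metastasis 1 (4.66), and highest in bladder tumor 1 (5.26) and treated bladder 3 (5.16). Bladder tumor 6 also had the highest mean over 7 fibroblast markers (10.2, against 6.31 to 9.11 elsewhere) and over 7 neutrophil markers (8.33), with luminal urothelium at 5.42. Metastasis 1 had the highest mean over 8 macrophage markers (8.55) and over 5 markers of dividing cells (7.05), with fibroblast markers at 8.04. The treated metastasis was next after bladder tumor 6 for fibroblast markers (9.11) and had a dividing cell mean of 6.82. In bladder tumor 6 the dividing cell mean was 6.87. Bladder tumor 6, metastasis 1 and the treated metastasis had the highest dividing cell means and the lowest luminal urothelium means. The luminal mean was 5.40 in metastasis 1 and 5.46 in the treated metastasis. Bladder tumor 1 had the lowest fibroblast mean, 6.31. By group, the fibroblast mean ran from 7.76 to 8.50 in control bladder, 6.31 to 10.2 in bladder tumor, 7.06 to 8.39 in treated bladder and 7.83 to 8.29 in metastasis. The macrophage mean ran from 5.68 to 6.78, 5.73 to 7.11, 6.00 to 6.41 and 6.51 to 8.55 in the same groups. The part of cell content in the members' values was not tested.

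Hspa5, Hsp90b1 and Calr were each highest in the same 3 arrays. A positive relation between members was not particular to these chaperones: over 20 arrays all 36 pairs of members had a correlation above 0, from 0.12 to 0.921 with a median of 0.524. The median was 0.627 in the 12 arrays that are not near-mean and 0.144 in the 8 that are. The share of all gene pairs above 0 was not computed, so the count is not read as particular to the members. Of all genes besides Hspa5, Calr and Hsp90b1, 5.8% had r above 0.7 with the mean of these chaperones. Hspa5 fell into separate sets of arrays, 17 at 6.35 to 7.30 and 3 (bladder tumor 6, metastasis 1 and the treated metastasis) at 8.39 to 8.60. This split was made on Hspa5 itself. The permutations below ignored group, so differences between groups enter their p-values. Within the 17 arrays, Calr followed Hspa5 with Pearson's r = 0.643 (permutation p = 0.00646, adjusted 0.0521 over 9 relations) and Spearman's rho = 0.662 (permutation p = 0.00492, adjusted 0.0443). Without the arrays farthest from the median, treated bladder 1 and bladder tumor 3, r was 0.555. Hsp90b1 followed with r = 0.597 (permutation p = 0.0116, adjusted 0.0521) and rho = 0.532 (permutation p = 0.0298, adjusted 0.134), and with r = 0.513 without those arrays. The relations differed between the sets of arrays: for Calr r was 0.163 in the 8 near-mean arrays and 0.849 in the other 9, and for Hsp90b1 0.356 and 0.679. Among the transcription factors, r with Hspa5 in the 17 arrays was 0.353 for Atf4, -0.0299 for Xbp1 and -0.0747 for Ddit3, and for Herpud1 it was 0.0107. Dnajb9 had r = 0.406 and Hspa13 0.381, and the background mean -0.391. In the 17 arrays none of these 6 members nor the background had a permutation p under 0.05 for r or rho. With the 3 high arrays included, the correlations were larger and rested in part on those arrays. Hspa5 and the background mean then had r = -0.748 (permutation p = 0.00016, adjusted 0.00048) and rho = -0.483 (permutation p = 0.0325, adjusted 0.0586), with r = -0.608 without metastasis 1 and the treated metastasis. Over these 20 arrays r with Hspa5 was 0.921 for Hsp90b1 and 0.883 for Calr (adjusted permutation p = 9e-05 for both), and 0.72 for Hspa13 (adjusted permutation p = 0.000697). It was 0.549 for Dnajb9 (adjusted permutation p = 0.0203), 0.49 for Xbp1 and 0.481 for Ddit3 (adjusted permutation p = 0.0435 for both). For Atf4 and Herpud1 it was 0.461 and 0.332, with adjusted permutation p = 0.051 and 0.154. The part of background signal in the relations between members was not tested.

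**Figure D4:**
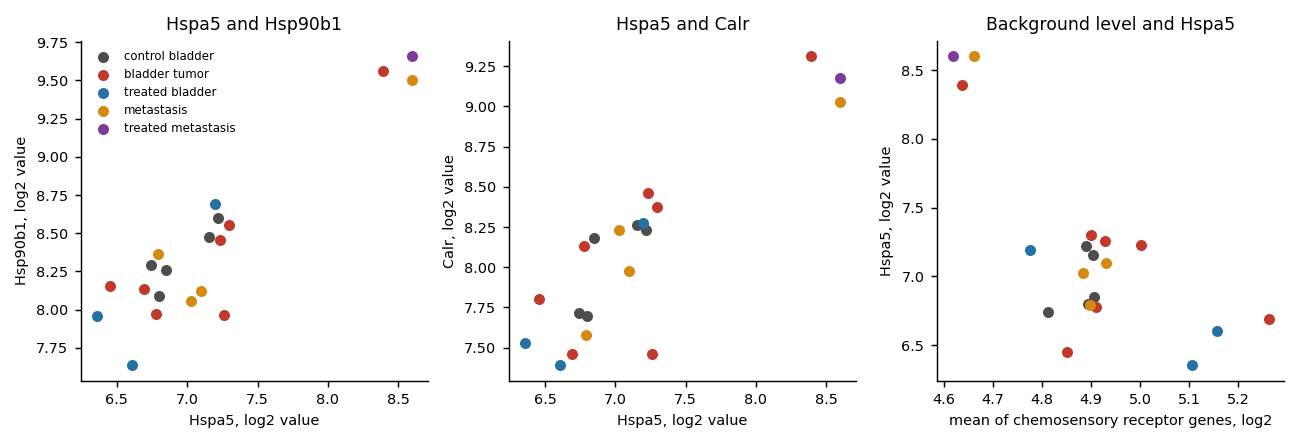
Hsp90b1 (left) and Calr (middle) against Hspa5, and Hspa5 against the mean of the chemosensory receptor genes (right), all as log2 values; each point is 1 array coloured by group. In each panel 3 arrays stand apart, with Hspa5 at 8.39 to 8.60 and the background mean at 4.62 to 4.66.

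The treated metastasis, a single sample, was above all 4 untreated metastases for 6 of 9 members, a place that 14.4% of all genes also had. It exceeded the mean of the untreated metastases by 1.22 for Hspa5, 1.15 for Hsp90b1, 0.98 for Calr, 0.58 for Dnajb9, 0.51 for Herpud1 and 0.33 for Ddit3. For Hspa5 and Ddit3 it exceeded the highest untreated metastasis only in the third decimal (8.6013 against 8.6005 and 7.3728 against 7.3716). Atf4, Xbp1 and Hspa13 lay within the untreated range. The difference has no replicate check.

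Related genes from 6 lists were also not called in any comparison. In treated bladder against tumor, 0 of 12 genes of ER-associated degradation were higher and 12 lower (median -0.12). Of 14 ER chaperones and folding enzymes 12 were lower (median -0.16), of 10 genes of ER translocation and export 9 (median -0.20), and of 8 sensors and transducers 7 (median -0.061). Among 17 targets of ATF4 and CHOP 12 were lower (median -0.084), and among 13 genes of immunogenic cell death 10 (median -0.22). Over all genes the median was -0.0018. Against control bladder, treated bladder was lower for 12 of 14 chaperones but higher for 12 of 17 ATF4 and CHOP targets (medians -0.054 and 0.026). Tumor against control had 11 of 14 chaperones (median 0.11) and 14 of 17 ATF4 and CHOP targets (median 0.14) higher, next to 53.0% of all genes. In metastasis against tumor the list medians ran from 0.013 for sensors to 0.21 for immunogenic cell death. Bladder tumor 6 had the highest mean of all arrays for each of these lists but the sensors. For the chaperones it measured 7.34, where the tumor median was 6.66. Treated bladder 1 and 3 had chaperone means of 6.35 and 6.38, and treated bladder 2 had 6.84. The lists share these arrays with the members, so their directions are not independent, and they were not refitted without single arrays.

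Named genes from those lists showed small differences for treated bladder against tumor. Txndc5, an ER disulfide isomerase, averaged 5.62 ± 0.12 (SD, n = 3) against 5.93 ± 0.30 (SD, n = 7), a difference of -0.31 (SE 0.14, adjusted p = 1). Creld2, an ER stress-induced secreted protein, differed by -0.34 (SE 0.25) and Sec24d, a coat protein of vesicles that leave the ER, by -0.39 (SE 0.28). The sensor gene Ern1, which encodes IRE1, differed by -0.15 (SE 0.16), and Traf2, an adaptor of IRE1, by -0.070 (SE 0.12). In the degradation list Sel1l, a ligase subunit, differed by -0.11 (SE 0.088) and the ubiquitin-conjugating enzyme Ube2j1 by -0.17 (SE 0.18). Spcs3, of the signal peptidase, differed by -0.28 (SE 0.22). Tnfrsf10b, the death receptor induced by CHOP, differed by -0.21 (SE 0.17) and Shmt2, a mitochondrial enzyme of serine metabolism, by -0.14 (SE 0.12). Cxcl10, a chemokine released in immunogenic cell death, differed by -0.31 (SE 0.20), and by 0.46 (SE 0.17, adjusted p = 0.999) between tumor and control. Its means lay near background: 4.77 in control bladder and 5.24 in bladder tumor, where the background means were 4.81 to 4.91 and 4.64 to 5.26. Hsp90aa1, a cytosolic Hsp90, differed by -0.43 (SE 0.33) in treated bladder against tumor.

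**Figure D5:**
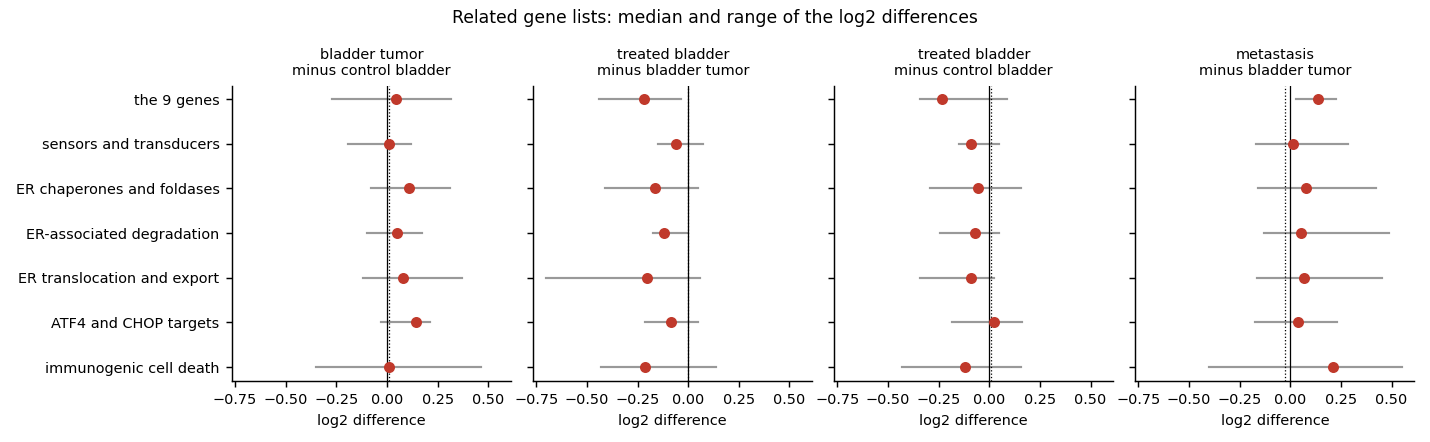
Median log2 difference (red point) and range (grey line) of the genes of each list in 4 comparisons; the dotted line is the median over all genes. For treated bladder against bladder tumor every list's median is below 0, from -0.22 to -0.061.

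Genes most like the members were sought by the correlation over 20 arrays with the mean of the members' standardised values. The 8 highest, leaving out members, predicted genes and small RNAs, were Exosc10 (r = 0.957), Hnrnph1 (0.957), Copa (0.955), Setd5 (0.953), Ep400 (0.944), Kpnb1 (0.942), Sars (0.94) and Ppp4r3a (0.94). Copa encodes a coat protein of vesicles between Golgi and ER, Exosc10 an RNA exosome subunit, Hnrnph1 a splicing regulator and Kpnb1 a nuclear import receptor. All 8 had their highest value in bladder tumor 6. In the 8 near-mean arrays alone their r lay between 0.169 and 0.792.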

How the data were processed

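Per the labels' protocols, RNA was isolated with an extraction kit made for fixed, embedded tissue, and 12 ng of it went onto each whole-transcript array from Affymetrix. The deposited log2 values come, per the submitters' processing notes, from RMA as run in Affymetrix Expression Console. Its version and settings were not found in the labels. RMA is meant to make the distributions of the arrays alike, which would remove a difference in total RNA. In the deposited values the array medians still ran from 5.07 to 5.42.

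By the platform annotation, 30604 rows held 1 gene symbol, 2146 held several and were not used, and 33206 were unnamed. Gene IDs of 22818 rows matched a table of GRCm38.p6, which updated 827 symbols. This left 30142 genes, and 355 with several rows kept the row of the highest mean.

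limma (release 3.58.1, on R 4.3.3) was run with 1 mean per group on the 19 arrays of the 4 replicated groups, with no covariates, and Benjamini-Hochberg adjustment was done within each comparison. The treated metastasis, a single sample, entered no test. Correlations used 100000 permutations in Python 3.11.15. The members and the lists of related genes and cell markers were chosen with earlier results of these data known. Named genes of a list were the 2 of lowest p in treated bladder against bladder tumor. Alternatives were the compared groups alone, array weights, a trended robust prior, another quantile normalization, median centring, no dim genes (under a mean of 5.33), averaged rows, the replicate number as a block, no near-mean arrays (no correlation above 0.2), the background mean as a covariate and each array left out.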

Additional observations from a re-analysis of the deposited data

Results flagged for a closer look

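In 27 groups of 4 to 7 arrays, each holding 1 gene's values, 3 values lay far from the rest of their group by Dixon's criterion, a gap to the nearest value that is large against the group's range. Chance flags about 1 in 20 such groups. Hspa5 in metastasis 1 measured 8.60 against 7.10 for the next metastasis, a gap of 0.831 of the range where the criterion is 0.829. Hsp90b1 in bladder tumor 6 measured 9.57 against 8.55 for the next tumor (0.633 of the range, criterion 0.568). Hspa13 in bladder tumor 6 measured 6.37 against 6.10 for the next tumor (0.613 of the range). Both arrays also had low background means, 4.66 and 4.64, and the cause was not tested.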

How the results depend on the processing

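No member was called in any of the 29 other settings of the 4 comparisons (lowest adjusted p 0.231), but direction held less well: 23 of 36 member differences changed sign in at least 1 setting. Few arrays limit all of these values, and without scanner files the signal over background is not known here.

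Genes called in tumor against control and in treated bladder against control went from 0 to 1 without the near-mean arrays (Xist in both, with differences of -6.08 and -4.82, the controls left being the ones with high Xist). For metastasis against tumor they went to 2 with array weights and 2 without dim genes (Defb5 and Hnrnph2), 1 with the background covariate (Hnrnph2) and 4 without the near-mean arrays (Ahsg, Ctsk, Lyz1 and Prg4), and from 0 to 2 with single arrays left out, 2 being reached without control bladder 5 or bladder tumor 6. These genes were named after their values were seen. The median member difference of treated bladder from control was 0.079 with the background covariate. The cause of these changes was not tested.

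For tumor against control, Ddit3 was -0.12 with array weights, -0.00034 with averaged rows and -0.20 without the near-mean arrays. Atf4 was -0.00078 after another quantile normalization and Xbp1 0.086 without the near-mean arrays. For treated bladder against tumor, the background covariate gave 0.010 for Herpud1, 0.065 for Atf4, 0.055 for Xbp1 and 0.059 for Dnajb9, and another quantile normalization 0.0052 for Xbp1. For treated bladder against control, the covariate gave 0.11 for Hspa5, 0.057 for Calr, 0.079 for Ddit3, 0.045 for Xbp1 and 0.081 for Hsp90b1. Calr was 0.027 without the near-mean arrays, and Atf4 was -0.041 with array weights, -0.033 after quantile normalization and -0.0088 after median centring. For metastasis against tumor, the covariate gave -0.16 for Calr, -0.057 for Herpud1, -0.12 for Ddit3 and -0.097 for Hsp90b1. Calr was -0.053 after quantile normalization, and without the near-mean arrays Ddit3 was -0.047, Atf4 -0.065 and Xbp1 -0.081.

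Most same-numbered samples did not deviate together: of 20 pairs of arrays, 3 correlated above 0.1 (r from -0.506 to 0.444). The deviations were taken from group means of few arrays, so this could not show whether same-numbered samples share an animal. The labels do not say. With the replicate block 0 genes were called in each comparison; Ddit3 in tumor against control was -0.015, and in treated bladder against tumor Herpud1 was 0.013 and Atf4 0.059.

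With single arrays left out, tumor against control ran from -0.00014 to 0.32 for Hspa5, -0.068 to 0.24 for Calr, -0.14 to 0.16 for Ddit3, -0.092 to 0.10 for Atf4, -0.20 to 0.013 for Xbp1 and -0.14 to 0.13 for Hsp90b1. Treated bladder against tumor ran from -0.18 to 0.080 for Herpud1, -0.22 to 0.19 for Atf4, -0.15 to 0.10 for Xbp1 and -0.17 to 0.069 for Dnajb9. Treated bladder against control ran from -0.18 to 0.23 for Atf4 and -0.22 to 0.031 for Xbp1. Metastasis against tumor ran from -0.19 to 0.43 for Hspa5, -0.22 to 0.27 for Calr, -0.039 to 0.13 for Herpud1, -0.074 to 0.21 for Ddit3 and -0.22 to 0.31 for Hsp90b1. The median member difference ran from -0.13 to 0.10, -0.27 to -0.050, -0.39 to -0.12 and -0.027 to 0.26 in the 4 comparisons in this order.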

Other observations

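The ER stress response element occurs in the promoter windows of 37 genes in all, and 26 of them besides Hspa5, Calr and Hsp90b1 were measured. Their median correlation over 20 arrays with the mean of those 3 genes was 0.00042. It was -0.173 over all measured genes besides those 3, a set that includes the 26. In that set 5.8% had r above 0.7. Of the 26, 3 had r above 0.7. These were Canx (0.868), the membrane-bound relative of calreticulin, Creld2 (0.797) and Dnajc3 (0.705), an ER J protein. They were named after their values were seen. Other ER genes with the element, Pdia6 and Syvn1, had r = 0.576 and 0.495, and Derl3 and Ero1b had r = -0.12 and -0.135.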
